A study of Mus musculus with 9 samples.

Results

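The type I interferon response genes described here are 39 genes that cells switch on after interferon-alpha or interferon-beta binds its receptor. They were followed in cultured mouse spleen CD4 T cells with, without and after cross-linking of CD69. The members were taken by gene symbol from a list of interferon-stimulated genes, with the brightest probe set standing for a gene, and 35 of the 39 were measured among 19938 genes. Isg15 and Oas1g were represented by probe sets shared with another gene, and Ifi44 and Ly6a had no probe set annotated to 1 symbol, so these 4 were left without a value. No filter on low values was applied.

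Type I interferons signal through the receptor chains IFNAR1 and IFNAR2 and the kinases JAK1 and TYK2. These phosphorylate STAT2, which acts with IRF9 in the complex ISGF3 to bind the interferon-stimulated response element (ISRE) in target promoters. Interferon-gamma, the type II interferon made by activated T cells, acts at gamma-activated sites (GAS) and switches on some of the same genes. The products sense foreign nucleic acid, block viral entry, translation or release, and feed back on the pathway. CD69 is a membrane protein that appears early on activated lymphocytes and is known for holding back the sphingosine-phosphate receptor S1PR1, as interferon-induced CD69 does in lymph nodes.

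The study compared 3 groups of 3 Affymetrix arrays, all from spleen cells enriched for CD4 T cells of C57BL/6J mice. Wild-type cells and CD69-/- cells, which come from mice lacking Cd69, were cultured for 72 h on beads coated with antibodies to CD3 and CD28. CD69-activated cells were wild-type cells cultured in the same way that also received anti-CD69 at 24 h and a cross-linking second antibody at 48 h, each diluted 1 in 200. All 3 groups therefore carry the bead stimulation. None of the 9 arrays had a control antibody or the second antibody alone. Adding antibody and cross-linking CD69 therefore cannot be told apart. The ages and sexes of the mice, and whether CD69-/- and control mice were littermates, were not given in the sources used here. The labels call the arrays biological replicates without saying that each is a separate mouse, so p-values measure only the spread between these samples. No interferon was added according to the labels, and values are therefore levels after bead stimulation.

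The promoters of some members show the letters through which the pathway acts. RefSeq windows (GRCm38.p6) from 250 bases before to 50 bases after the gene start were found for 27 of the 39 members. The ISRE letters, searched on both strands as GAAA, any 2 bases and GAAA, occurred in 13 of these 27 windows (48.1%) and in 3.99% of all 27025 genes with a window. The 13 were Bst2, Ddx58, Eif2ak2, Ifih1, Ifit1, Ifit3, Ifitm3, Isg15, Oas1a, Oas1g, Oas3, Rsad2 and Stat2, with 21 matches in all. GAS letters (TTC, any 3 bases and GAA) occurred in 8 of the 27 windows (29.6%) against 9.55% of all genes, and in 2 of the 4 members that held both motifs the matches shared bases. Such a match is a run of letters and not a measured binding site. Oas3 and Ifit1 are shown with 250 bases before the start because they moved in opposite directions in the 2 comparisons with wild type, and the ISRE letters are in capitals. The Oas3 stretch is chr5:120777660-120777909 on the minus strand, and the Ifit1 stretch is chr19:34640639-34640888 on the plus strand, each written 5′ to 3′ in the gene's direction.
Oas3: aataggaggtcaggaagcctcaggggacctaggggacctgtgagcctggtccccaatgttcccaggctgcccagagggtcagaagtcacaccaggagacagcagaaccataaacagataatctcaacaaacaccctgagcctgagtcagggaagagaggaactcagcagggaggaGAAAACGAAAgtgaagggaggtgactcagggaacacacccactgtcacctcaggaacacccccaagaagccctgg
Ifit1: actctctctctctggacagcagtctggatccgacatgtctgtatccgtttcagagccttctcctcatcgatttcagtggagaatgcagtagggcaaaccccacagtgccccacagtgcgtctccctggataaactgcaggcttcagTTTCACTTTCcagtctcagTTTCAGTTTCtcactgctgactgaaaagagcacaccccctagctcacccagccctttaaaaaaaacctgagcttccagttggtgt

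In Oas3 the match began 75 bases before the start, and in Ifit1 2 matches on the opposite strand began 104 and 85 bases before it. Ifitm3 and Eif2ak2 complete the 4 members with an ISRE match and the largest changes, and Ifit3 was added after its values were seen because it lies in the same gene cluster as Ifit1. Their matches are given with 10 bases on each side. The Ifitm3 matches lie at chr7:141010706-141010735 and chr7:141010723-141010752 on the minus strand, the Eif2ak2 match at chr17:78882535-78882564 on the minus strand, and the Ifit3 matches at chr19:34583363-34583392 and chr19:34583397-34583426 on the plus strand.
Ifitm3: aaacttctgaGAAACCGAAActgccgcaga
Ifitm3: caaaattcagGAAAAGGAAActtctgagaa
Eif2ak2: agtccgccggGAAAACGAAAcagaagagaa
Ifit3: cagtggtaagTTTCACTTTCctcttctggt
Ifit3: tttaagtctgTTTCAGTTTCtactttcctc

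The Ifit1 and Ifit3 windows held the same pair of ISRE matches on the same strand and in the same order. Among measured members, 8 of the 11 with an ISRE match and 7 of the 13 with a window but no match were called lower than wild type in CD69-activated cells (limma adjusted p under 0.05), as were 13.7% of all genes. In CD69-/- cells 3 of those 11 were higher and 4 lower, and 0 of the 13 were higher and 4 lower, where 8.36% of all genes were higher and 6.78% lower.

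Values are log2 levels on the scale the authors deposited, and a difference of group means on that scale is called a log2 difference. A gene was called higher or lower when limma's adjusted p, over all 19938 genes, was under 0.05. Cd69 itself averaged 12.17 in wild-type arrays, 9.59 in CD69-/- and 11.79 in CD69-activated cells, so CD69-/- arrays were 5.99-fold lower (adjusted p = 1.22e-08), as their label implies. CD69-/- arrays also had the pattern of male cells: Xist averaged 6.01 there against 12.59 in wild type and 12.95 in CD69-activated cells, and Eif2s3y averaged 9.78 against 4.33 and 4.35. Sex and genotype cannot be told apart in that comparison. No measured member lies on the X or Y chromosome.

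Markers of CD4 T cells and of B cells were both well above the array medians, which were at most 7.56. Cd3e and Cd4, which define CD4 T cells, averaged 12.50 and 11.98 in wild type, and Cd79b, a B cell receptor subunit, averaged 13.61. Levels of different probe sets cannot be compared, so these values give no share of cells. Among all genes 8.36% were called higher and 6.78% lower in CD69-/- cells, and 10.1% higher and 13.7% lower in CD69-activated cells. A count of 1 among 7 markers is near those shares. In CD69-/- arrays 8 of 8 measured CD4 T cell markers were called higher, with a summed log2 level of 15.44 to 15.46 against 14.98 to 15.05 in wild type. B cell markers were lower in 7 of 7 (15.04 to 15.13 against 15.48 to 15.55), and markers of monocytes, macrophages and dendritic cells in 7 of 8 (11.89 to 11.96 against 12.55 to 12.56). For plasmacytoid dendritic cells, known for making much type I interferon, 3 of 7 were lower and 1 higher (12.56 to 12.63 against 13.03 to 13.09). Each sum adds unlogged levels, so the brightest marker weighs most, here Spib (12.20 in wild type and 11.39 in CD69-/- cells). The sum therefore follows Spib and is no measure of plasmacytoid dendritic cells alone. What part B cells, whose markers fell in the same arrays, have in the fall of Spib was not tested. Siglech, under the array medians, averaged 7.09 and 6.91, and Cox6a2, the 1 called higher, averaged 9.27 and 9.43. The value listed for Klk1 comes from a probe set that RefSeq names Klk1b1 (4.84 and 4.72, not called). So 1 of the 7 may not be the marker meant. In CD69-activated arrays 0 of 8 CD4 T cell markers were higher and 2 lower (14.95 to 14.99), and 1 of 7 B cell markers was higher and 2 lower (15.40 to 15.45). Of the 8 markers of monocytes, macrophages and dendritic cells 4 were higher and 2 lower there (12.67 to 12.72), and of the 7 for plasmacytoid dendritic cells 1 was lower (13.00 to 13.09). NK cell markers were called lower in 5 of 6 in both comparisons with wild type. Their sums were 10.45 to 10.52 in wild type, 10.18 to 10.23 in CD69-/- and 9.51 to 9.60 in CD69-activated cells. Eomes, the brightest of them, weighs most, at 10.10, 9.87 and 9.05 in those groups, so the sums are no measure of NK cells alone. Klrb1c, Klre1, Klra8 and Klri2 lay under the array medians, at 4.91 to 5.58 in wild type. Both CD8 T cell markers were called higher in CD69-/- and lower in CD69-activated cells. Their sums were 12.93 to 12.95 in wild type, 13.41 to 13.46 in CD69-/- and 12.50 to 12.69 in CD69-activated cells. Cd8a averaged 11.26, 11.87 and 10.73 in those groups, and Cd8b1 12.40, 12.83 and 12.15, all above the array medians. Of 3 measured erythroid markers 3 were lower in CD69-/- cells, and 1 was higher and 1 lower in CD69-activated cells, while 0 of 7 neutrophil markers were called in either by limma (at an unadjusted p under 0.05, 3 in CD69-/- and 1 in CD69-activated cells). The values carry no detection call, so no marker can be called absent. What part these shifts have in the members' differences was not tested, and in such bulk samples fewer cells of a type and less RNA per cell cannot be told apart.

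After CD69 cross-linking the members were lower. Of the 35 measured, 24 were called lower than wild type (68.6%), 0 higher and 11 were not called. Over all genes 23.8% were called, 13.7% lower and 10.1% higher. The median log2 difference was -0.23 for the members and 0.02 for all genes. The changes were modest: the range was -0.93 to 0.08, and only Ifitm3 and Oas2 were called with at least a 1.5-fold change, where 1.58% of all genes were. At an unadjusted limma p under 0.05, 1 member was higher and 26 were lower, against 3453 and 3584 of all 19938 genes. In 26 members every CD69-activated array lay under every wild-type array, and in 2 every one lay over, against 17.9% and 18.1% of all genes. Calls for 20 of the 24 held in all 17 alternatives other than the 1.5-fold minimum, and those for Ifih1, Mx1, Mx2 and Usp18 did not.

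In CD69-/- cells the members split. Against wild type 5 were called higher (Oas3, Usp18, Ifit1, Bst2 and Rtp4), 11 lower and 19 were not called. That is 14.3% higher and 31.4% lower, where over all genes 15.1% were called, 8.36% higher and 6.78% lower. The median log2 difference was 0.01 for the members and -0.01 for all genes, with a range of -0.44 to 0.44 and no member called at a 1.5-fold minimum, which 1.15% of all genes passed. The groups did not overlap in 11 members that were higher and 14 that were lower, against 17.3% and 15.9% of all genes. With arrays centred on their medians the split was 9 higher and 5 lower, against 12.3% higher and 4.44% lower of all genes. The 16 calls became 10 without wild-type replicate 2 or 3 or CD69-/- replicate 1 or 3, and the 11 lower calls became 6 without wild-type replicate 2 or 3 or without any 1 of the CD69-/- arrays. The calls for Bst2, Cmpk2, Ifit1, Ifitm3, Oas2, Oas3, Oasl2, Samd9l and Usp18 held in all alternatives but the 1.5-fold minimum, while those for Ifi27l2a, Ifit3, Mx2, Oasl1, Rsad2, Rtp4 and Stat2 were lost in some.

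Both comparisons use the same wild-type arrays, so CD69-activated and CD69-/- cells were also compared with each other. There 22 members were lower in CD69-activated cells and 2, Samd9l and Rsad2, were higher, where 42.6% of all genes were called, 21.0% lower and 21.6% higher. Oas3 and Ifit1 passed a 1.5-fold minimum, where 4.02% of all genes did, and the groups did not overlap in 23 lower and 5 higher members, against 24.2% and 27.3% of all genes. The median was -0.23 against 0.04 for all genes. Centring arrays on their medians moved the median of all genes by -0.13 in this comparison. It left 24 members lower and 1 higher, against 40.1% and 6.79% of all genes. The plots of levels by array and of differences show these patterns for every measured member.

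**Figure D1:**
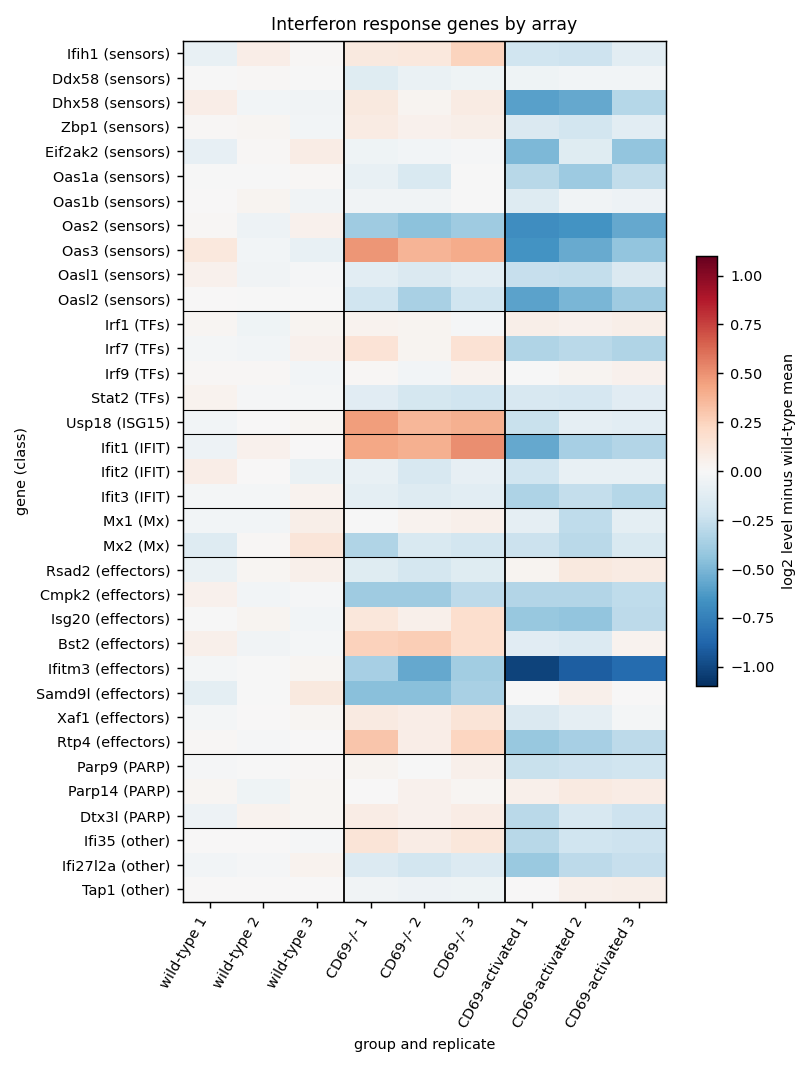
Each cell is the log2 level of a measured member (row, grouped by class) in 1 array (column) minus its wild-type mean. Blue cells, lower than wild type, fill most rows of the CD69-activated arrays, deepest in Ifitm3, while CD69-/- arrays mix red rows such as Oas3, Usp18 and Ifit1 with blue rows such as Oas2 and Samd9l.

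**Figure D2:**
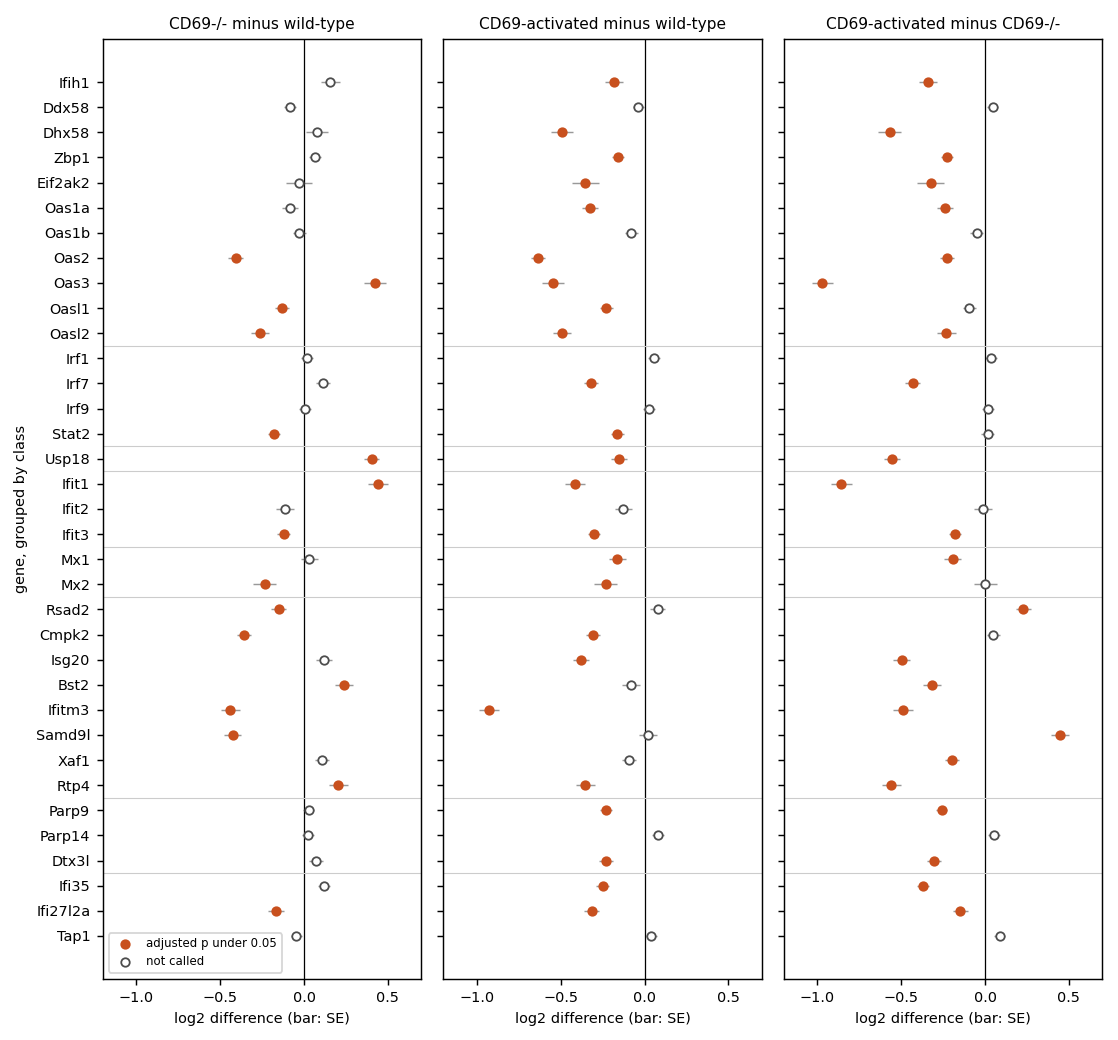
Points are log2 differences between group means of 3 arrays for each measured member, bars are standard errors, and filled points have an adjusted p under 0.05. In the middle panel 24 filled points lie left of 0 and none right of it, while the left panel has 5 filled points right and 11 left.

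Sensors of foreign RNA or DNA formed the largest class, with 11 of 12 measured. In CD69-activated cells 9 of the 11 were lower, where 13.7% of all genes were. In CD69-/- cells 3 were lower and 1 higher, where 6.78% of all genes were lower and 8.36% higher. The oligoadenylate synthetases detect double-stranded RNA and make the messenger that activates RNase L. Oas2 measured 9.96, 9.89 and 9.99 in wild-type arrays, 9.56, 9.50 and 9.56 in CD69-/- arrays, and 9.26, 9.29 and 9.38 in CD69-activated arrays. The 3 groups did not overlap, and Oas2 fell by 0.41 (SE 0.0439, 1.33-fold, limma adjusted p = 8.01e-05) in CD69-/- and by 0.63 (1.55-fold, adjusted p = 3.48e-06) in CD69-activated cells. Oas3 read 9.56, 9.41 and 9.37 in wild-type arrays, 9.94, 9.82 and 9.85 in CD69-/- arrays, and 8.79, 8.89 and 9.02 in CD69-activated arrays. Here too the groups were apart, but CD69-/- arrays were the highest. Oas3 rose by 0.42 (SE 0.0649, 1.34-fold, limma adjusted p = 0.000982) in CD69-/- cells and fell by 0.55 (1.46-fold, adjusted p = 0.000143) in CD69-activated cells. Between those 2 groups it differed by 1.96-fold (adjusted p = 8.54e-07), the largest difference of any member in any of the 3 comparisons.

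Oas2 and Oas3 are neighbours on chromosome 5. The log2 level of Oas3 minus that of Oas2 within an array ran from -0.62 to -0.40 in wild-type arrays, 0.30 to 0.38 in CD69-/- and -0.47 to -0.37 in CD69-activated arrays. The shift between CD69-/- and wild type was 0.83, with an exact two-sided permutation p of 0.1, the smallest that 3 against 3 can give. Between CD69-activated and wild-type arrays it was 0.09 (exact p = 0.3). The pair was chosen after its differences were seen, so these shifts restate the values of both genes and are a description.

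The remaining members of the family had smaller differences. Oas1a measured 8.14, 8.14 and 8.16 in wild-type arrays, 8.06, 7.98 and 8.14 in CD69-/- arrays, and 7.84, 7.74 and 7.87 in CD69-activated arrays. Only the CD69-activated arrays stood apart, and Oas1a fell by 0.33 there (SE 0.0479, limma adjusted p = 0.00058), with a log2 difference of -0.09 (adjusted p = 0.285) in CD69-/- cells. Oas1b, a flavivirus resistance gene that RefSeq lists as a transcribed pseudogene in this mouse assembly, had log2 differences of -0.03 in CD69-/- and -0.08 in CD69-activated cells and was called in neither. The oligoadenylate synthetase-like gene Oasl2 measured 10.73, 10.72 and 10.72 in wild-type arrays, 10.50, 10.37 and 10.51 in CD69-/- arrays, and 10.14, 10.22 and 10.33 in CD69-activated arrays. Its 3 groups lay in that order without overlap. Oasl2 fell by 0.26 (SE 0.0539, limma adjusted p = 0.00621) in CD69-/- cells and by 0.50 (1.41-fold, adjusted p = 8.35e-05) in CD69-activated cells. Oasl1, which represses translation of Irf7 mRNA, fell by 0.13 (adjusted p = 0.0492) and 0.23 (adjusted p = 0.00208).

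**Figure D3:**
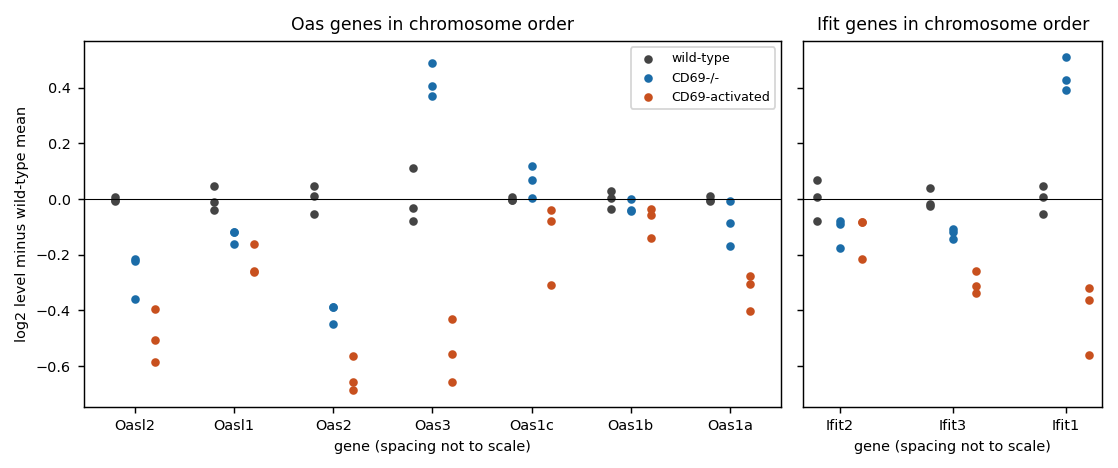
Points are single arrays, and the vertical axis is the log2 level minus the wild-type mean. Genes of the Oas region (chromosome 5) and the Ifit region (chromosome 19) stand in chromosome order. Only measured genes from the list of members or the pathway lists are shown. Oas3 and Ifit1 have CD69-/- points far above 0, while the CD69-/- points of Oas2, Ifit2 and Ifit3 lie below 0 and those of Oas1c above it; Oas1c is not a member but belongs to the list of further induced genes.

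The cytosolic RNA helicases differed among themselves. Dhx58 encodes LGP2, which tunes signalling by the others. It measured 9.45, 9.34 and 9.34 in wild-type arrays, 9.48, 9.41 and 9.47 in CD69-/- arrays, and 8.78, 8.81 and 9.06 in CD69-activated arrays. CD69-/- and wild-type arrays overlapped (log2 difference 0.08, adjusted p = 0.527), and CD69-activated arrays were lower by 1.41-fold (SE of the log2 difference 0.0678, limma adjusted p = 0.000381). Ifih1, encoding the long double-stranded RNA sensor MDA5, fell by 0.18 in CD69-activated cells (adjusted p = 0.0309), and its log2 difference in CD69-/- cells was 0.16 (adjusted p = 0.0821). Ddx58, encoding RIG-I, was called in neither comparison, with log2 differences of -0.08 and -0.04. Eif2ak2 encodes PKR, the kinase that stops translation on sensing double-stranded RNA. It measured 9.28, 9.38 and 9.45 in wild-type arrays, 9.32, 9.34 and 9.36 in CD69-/- arrays, and 8.87, 9.23 and 8.94 in CD69-activated arrays. The lowest wild-type array lay just above the highest CD69-activated one, and Eif2ak2 fell by 0.35 there (SE 0.0801, limma adjusted p = 0.00817), with -0.03 (adjusted p = 0.855) in CD69-/- cells. Zbp1, a sensor of Z-form nucleic acid that can start necroptosis, fell by 0.16 (adjusted p = 0.00856) in CD69-activated cells and had a log2 difference of 0.07 (adjusted p = 0.28) in CD69-/- cells.

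Of the 4 transcription factors, 2 were called lower in CD69-activated cells and 1 in CD69-/- cells, where 13.7% and 6.78% of all genes were. Irf7, which amplifies interferon-alpha transcription, measured 10.88, 10.87 and 10.94 in wild-type arrays, 11.05, 10.93 and 11.06 in CD69-/- arrays, and 10.57, 10.60 and 10.57 in CD69-activated arrays. CD69-activated arrays were the lowest in every case. Irf7 fell by 0.32 there (limma adjusted p = 0.000336) and had a log2 difference of 0.11 (adjusted p = 0.118) in CD69-/- cells. Stat2, a subunit of ISGF3, fell by 0.18 in CD69-/- cells (adjusted p = 0.00796) and by 0.16 in CD69-activated cells (adjusted p = 0.00974). The call in CD69-/- cells was lost with arrays centred on their medians (adjusted p = 0.0852). Irf9, the DNA-binding subunit of ISGF3, had log2 differences of 0.01 and 0.03 and was not called.

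Irf1, induced chiefly by interferon-gamma, was covered by 2 probe sets that did not give the same result. The brighter one, used here, averaged 12.78 in wild-type arrays, 12.80 in CD69-/- and 12.83 in CD69-activated arrays and was not called. The dimmer one averaged 8.68, 8.72 and 8.99, with a log2 difference of 0.31 in CD69-activated cells (SE 0.0853, limma adjusted p = 0.0369 over all probe sets). No direction is given for Irf1 on that account.

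Usp18 removes the ubiquitin-like ISG15 from proteins and blocks signalling at IFNAR2, so it is both an induced gene and a brake. It measured 10.67, 10.70 and 10.72 in wild-type arrays, 11.16, 11.06 and 11.09 in CD69-/- arrays, and 10.46, 10.60 and 10.58 in CD69-activated arrays. CD69-/- arrays were all higher and CD69-activated arrays all lower than wild type. Usp18 rose by 0.40 in CD69-/- cells (SE 0.0458, 1.32-fold, limma adjusted p = 0.000118). In CD69-activated cells it fell by 0.15 (1.11-fold, adjusted p = 0.0332), a call lost with cyclic loess scaling (adjusted p = 0.0621).

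The IFIT proteins bind viral RNA that lacks the host cap modification and hold it back from translation. Ifit1 measured 9.88, 9.98 and 9.94 in wild-type arrays, 10.35, 10.32 and 10.44 in CD69-/- arrays, and 9.37, 9.57 and 9.61 in CD69-activated arrays. As with Usp18 and Oas3, wild type lay between the other groups without overlap. Ifit1 rose by 0.44 in CD69-/- cells (SE 0.061, 1.36-fold, limma adjusted p = 0.000467) and fell by 0.41 in CD69-activated cells (1.33-fold, adjusted p = 0.000599). Ifit3, in the same gene cluster on chromosome 19, measured 11.56, 11.55 and 11.62, then 11.47, 11.43 and 11.46, then 11.24, 11.32 and 11.27 in the groups in that order. It was lower than wild type in both, by 0.12 (adjusted p = 0.0458) in CD69-/- and by 0.30 (adjusted p = 0.000169) in CD69-activated cells. The log2 level of Ifit1 minus that of Ifit3 within an array shifted by 0.56 between CD69-/- and wild-type arrays without overlap (exact two-sided permutation p = 0.1, the smallest possible), and by -0.11 between CD69-activated and wild-type arrays (exact p = 0.3). This pair and the others compared within arrays were likewise chosen with their differences known. Ifit2 was called in neither, at -0.11 and -0.13.

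The Mx GTPases trap viral nucleocapsids. Mx2 levels lay under the array medians, at 6.11, 6.26 and 6.38 in wild-type arrays, 5.92, 6.09 and 6.05 in CD69-/- arrays, and 6.02, 5.95 and 6.09 in CD69-activated arrays. Both other groups lay just under wild type, and each fell by 0.23 (SE 0.0695, limma adjusted p = 0.0438 and 0.0322). A filter on dim probe sets removed Mx2. Mx1, whose protein is not made in full length in C57BL/6 mice, fell by 0.16 in CD69-activated cells (adjusted p = 0.0431) and had a log2 difference of 0.03 in CD69-/- cells.

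The other antiviral effectors held the widest range. Ifitm3 sits in endosomal membranes and blocks fusion of entering viruses. It measured 10.29, 10.31 and 10.34 in wild-type arrays, 9.95, 9.75 and 9.93 in CD69-/- arrays, and 9.29, 9.40 and 9.47 in CD69-activated arrays. The groups lay in that order without overlap, and the CD69-activated group showed the largest fall of any member against wild type. Ifitm3 fell by 0.44 in CD69-/- cells (SE 0.0589, 1.36-fold, limma adjusted p = 0.000384) and by 0.93 in CD69-activated cells (1.9-fold, adjusted p = 1.79e-06). Samd9l, which restricts poxvirus translation and growth of blood cells, took another course, at 11.03, 11.13 and 11.24 in wild-type arrays, 10.67, 10.68 and 10.77 in CD69-/- arrays, and 11.13, 11.19 and 11.14 in CD69-activated arrays. Only CD69-/- arrays stood apart: Samd9l fell by 0.43 there (SE 0.0531, 1.34-fold, limma adjusted p = 0.000222), with a log2 difference of 0.02 (adjusted p = 0.844) in CD69-activated cells. The difference between CD69-activated and CD69-/- cells was 0.44 (adjusted p = 5.91e-05).

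Cmpk2, a mitochondrial nucleotide kinase, and Rsad2, encoding viperin, which makes a chain-terminating nucleotide from CTP, are neighbours on chromosome 12. Cmpk2 measured 9.80, 9.72 and 9.74 in wild-type arrays, 9.36, 9.36 and 9.46 in CD69-/- arrays, and 9.43, 9.43 and 9.47 in CD69-activated arrays. Both groups lay under wild type and overlapped each other, and Cmpk2 fell by 0.36 (SE 0.0409, limma adjusted p = 0.000124) and by 0.31 (adjusted p = 0.00031). Rsad2 fell by 0.15 in CD69-/- cells (adjusted p = 0.0407) but had a log2 difference of 0.08 (adjusted p = 0.241) in CD69-activated cells. Cmpk2 minus Rsad2 within an array shifted by -0.21 in CD69-/- and by -0.38 in CD69-activated arrays against wild type, each without overlap (exact two-sided permutation p = 0.1, the smallest possible).

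Isg20, a nuclease that degrades RNA from its end, measured 11.00, 11.03 and 10.97 in wild-type arrays, 11.12, 11.05 and 11.18 in CD69-/- arrays, and 10.58, 10.56 and 10.71 in CD69-activated arrays. It fell by 0.38 in CD69-activated cells (SE 0.049, 1.3-fold, limma adjusted p = 0.000261), where all arrays were under the others, and was not called in CD69-/- cells (0.12, adjusted p = 0.143). Bst2 encodes tetherin, which holds budding virus at the cell surface. It measured 9.36, 9.26 and 9.28 in wild-type arrays, 9.55, 9.57 and 9.48 in CD69-/- arrays, and 9.18, 9.15 and 9.33 in CD69-activated arrays. CD69-/- arrays were all higher (log2 difference 0.24, SE 0.0529, limma adjusted p = 0.0104), while CD69-activated and wild-type arrays overlapped (-0.08, adjusted p = 0.322). Rtp4, a negative regulator of interferon responses that restrains flaviviruses, measured 10.46, 10.44 and 10.46 in wild-type arrays, 10.76, 10.53 and 10.69 in CD69-/- arrays, and 10.04, 10.09 and 10.17 in CD69-activated arrays. It lay above wild type in all CD69-/- and below it in all CD69-activated arrays, rising by 0.20 (SE 0.0576, limma adjusted p = 0.0351) and falling by 1.28-fold (adjusted p = 0.00117). Xaf1, a pro-apoptotic partner of XIAP, was not called in either, at 0.11 and -0.09.

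**Figure D4:**
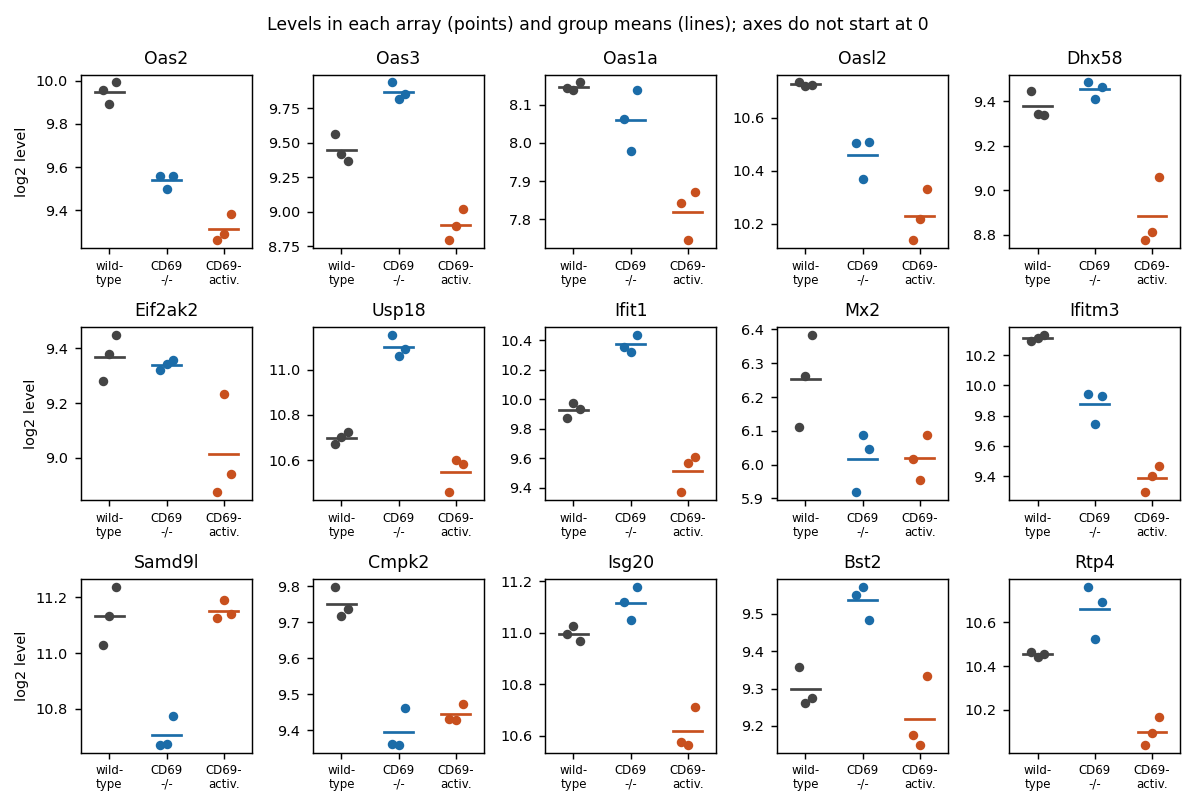
Points are the log2 levels of 15 members in each of 9 arrays, lines are group means of 3 arrays, and each panel has its own axis that does not start at 0. Oas3, Usp18, Ifit1 and Rtp4 have wild type between higher CD69-/- and lower CD69-activated points, Oas2, Oasl2 and Ifitm3 step down from wild type through CD69-/- to CD69-activated points, and Samd9l is low in CD69-/- arrays alone.

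Parp9 and Dtx3l form a complex of an ADP-ribosyltransferase family protein and a ubiquitin ligase that boosts interferon signalling, and both fell by 0.23 in CD69-activated cells (limma adjusted p = 0.000515 and 0.00219). Parp14, an ADP-ribosyltransferase whose gene adjoins them on chromosome 16, was not called (0.08, adjusted p = 0.135). Parp9 minus Parp14 within an array shifted by -0.31 between CD69-activated and wild-type arrays without overlap (exact two-sided permutation p = 0.1, the smallest possible). None of the 3 was called in CD69-/- cells, where log2 differences were 0.03 for Parp9, 0.03 for Parp14 and 0.07 for Dtx3l. Of the rest, Ifi35 fell by 0.25 in CD69-activated cells (adjusted p = 0.000588). Ifi27l2a fell by 0.17 in CD69-/- (adjusted p = 0.0287) and 0.32 in CD69-activated cells (adjusted p = 0.000493). Tap1, which pumps peptides to MHC class I, stayed uncalled at -0.05 and 0.04.

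The genes around the members, from ligand to brake, were taken from lists of the pathway. Among 15 measured ligands only Ifng was called in CD69-activated cells, where 23.8% of all genes were called. It measured 11.67, 11.68 and 11.66 in wild-type arrays, 12.07, 12.06 and 12.22 in CD69-/- arrays, and 9.11, 9.10 and 9.10 in CD69-activated arrays. Wild type again lay between the other groups: Ifng rose by 0.45 in CD69-/- cells (adjusted p = 4.82e-05) and was 5.92-fold lower in CD69-activated cells (adjusted p = 1.95e-10). What part interferon-gamma has in the members' values was not tested. Ifnb1, the first type I interferon made by most cells, averaged 5.99 in wild type, with log2 differences of 0.04 and 0.10 that were not called. Ifna14 was called lower in CD69-/- cells (-0.20, adjusted p = 0.0302), but the Ifna genes are near-identical copies and their probe sets are uncertain. Of 10 receptor and signalling genes, Ifnar2, a chain of the type I receptor, was the single call, higher by 0.19 in CD69-/- cells (limma adjusted p = 0.0112). There 15.1% of all genes were called, so Ifnar2 is given as a value and not as a result of the list. In CD69-activated cells 0 of the 10 were called by limma, with 1 higher at an unadjusted p under 0.05. Ifnar1, the other chain, had log2 differences of 0.08 and 0.06.

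Of 5 interferon regulatory factors outside the members, 3 were called in CD69-/- cells and 1 in CD69-activated cells. Irf4, which drives effector differentiation of activated T cells, rose by 0.50 in CD69-/- cells (limma adjusted p = 4.26e-06) and fell by 0.44 in CD69-activated cells (adjusted p = 9.28e-06). Irf5 and Irf8, known from myeloid and B cells, fell by 0.63 (adjusted p = 5.87e-06) and 0.23 (adjusted p = 0.0012) in CD69-/- cells, beside the lower B cell and monocyte markers given above. Among 13 upstream sensing genes 4 were higher and 4 lower in CD69-/- cells, and 2 were higher and 5 lower in CD69-activated cells. Over all genes 8.36% were higher and 6.78% lower in CD69-/- cells, and 10.1% higher and 13.7% lower in CD69-activated cells. The falls in CD69-/- cells were led by the endosomal sensors Tlr9 (-0.49) and Tlr7 (-0.42) and by the lipopolysaccharide receptor Tlr4 (-0.34), while Mb21d1, encoding the DNA sensor cGAS, was higher (0.37). In CD69-activated cells the falls were led by Tlr3 (-0.35), its adaptor Ticam1 (-0.30) and Tlr7 (-0.24), and the kinase Ikbke was higher (0.23).

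Brakes on the pathway were called in 3 of 12 in CD69-/- and 4 of 12 in CD69-activated cells, not far from the 15.1% and 23.8% of all genes, so the single genes are given as values and not as a result of the list. Rnf125, a ubiquitin ligase acting on RIG-I, was higher in both (0.46 and 0.22). Socs3, a suppressor of cytokine signalling, was higher in CD69-/- (0.31) and lower in CD69-activated cells (-0.14), and the phosphatase Ptpn6 was lower in CD69-/- cells (-0.19). Socs1, which inhibits JAK kinases, and Ptpn2, a phosphatase of cytokine signalling, fell in CD69-activated cells, by 0.38 and 0.33. Of all genes, 13.7% were lower and 10.1% higher in CD69-activated cells, and 6.78% lower and 8.36% higher in CD69-/- cells. Among 29 further induced genes outside the members, 13 were lower and 3 higher in CD69-activated cells, with a median of -0.12. In CD69-/- cells 5 of these 29 were lower and 4 higher, with a median of -0.02. The falls in CD69-activated cells were led by Ifitm1 (-0.81) and Ifitm2 (-0.53), relatives of Ifitm3, by Ube2l6 (-0.67), the conjugating enzyme for ISG15, and by Gm4951 (-0.60), an interferon-inducible GTPase. In CD69-/- cells the largest called changes were in Ifi30, a lysosomal thiol reductase (-0.46), Ube2l6 (-0.41), Epsti1 (0.33) and Lgals3bp (0.26).

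**Figure D5:**
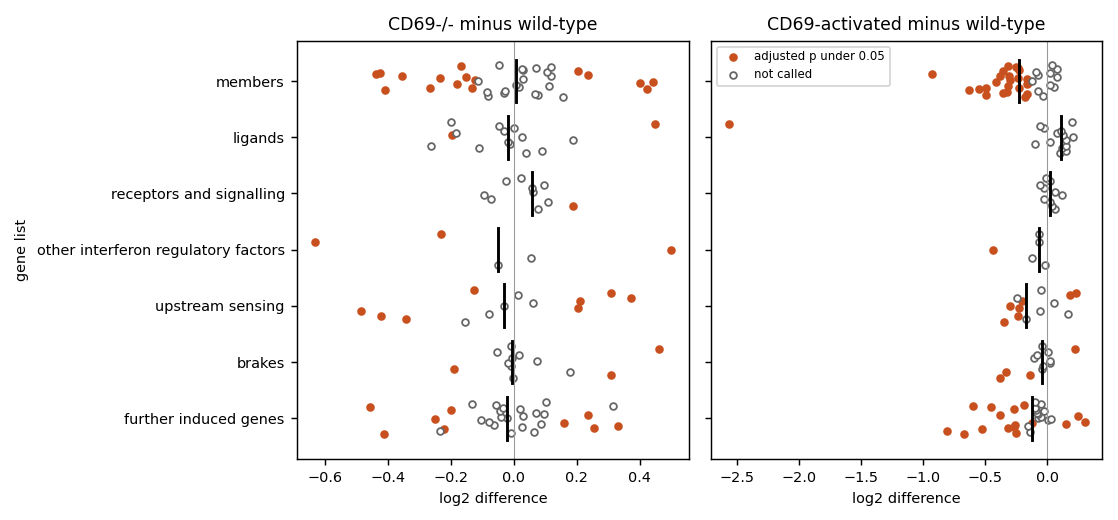
Each point is the log2 difference of 1 gene from wild type, rows are the members and the other lists of the pathway, filled points have an adjusted p under 0.05 and bars mark medians. In the right panel the members' median is -0.23 and the single point near -2.57 is Ifng, while ligands apart from it and receptors have no filled point.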

How the data were processed

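Total RNA of 9 cultures was labelled and hybridised to Affymetrix arrays, 1 array a sample. The log2 expression values are used as deposited; per the submitters' processing notes, the authors ran RMA (oligo package, R 2.12.1). How RMA was set, and on which annotation, is not stated in the labels. RMA in its usual form scales arrays to a common distribution and compresses large changes.

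The 35556 probe sets were named from the platform annotation: 21789 had 1 gene symbol, 1621 several and 12146 none. A gene was represented by its brightest probe set (999 of 19938 genes had more than 1). Group means over all 9 arrays were fitted with limma 3.58.1 in R 4.3.3 (lmFit, eBayes, 6 residual and 4.78 prior degrees of freedom), two-sided, with Benjamini-Hochberg adjustment over all genes, after tests on simulated data. Differences within arrays were tested by exact permutation. The number of arrays limits the precision: standard errors of members' differences ran from 0.0331 to 0.0801.

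Values in every array were given for called members with the 10 largest differences in each comparison with wild type and for called members with opposite signs, and up to 4 called genes were named per pathway list and comparison. Irf7, Ifit3 and Ifng were shown by array beyond this rule. Members, lists and markers were chosen with earlier results of these data known. Motifs were searched in RefSeq promoter windows (12 members had none). Alternatives were centring, cyclic loess, a dim filter, averaged or all probe sets, only the arrays compared, an intensity trend, a replicate block, a 1.5-fold minimum, leaving out each array, and a shorter ISRE.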

Additional observations from a re-analysis of the deposited data

How the results depend on the processing

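No called member changed direction under any alternative. With arrays centred on their medians, 9 members were higher and 5 lower in CD69-/- cells, and 1 was higher in CD69-activated than in CD69-/- cells. Cyclic loess gave 1 higher member in CD69-activated cells against wild type (Parp14) and 5 against CD69-/- cells, and averaging probe sets gave 1 against wild type (Irf1). Testing all probe sets left 10 calls in CD69-/- cells, 6 of them lower. A 1.5-fold minimum left 0 calls in CD69-/- cells (0 higher, 0 lower), 2 in CD69-activated cells against wild type (2 lower) and 2 against CD69-/- cells (0 higher, 2 lower). Leaving out 1 array gave 10 to 16 calls in CD69-/- cells, of which 6 to 10 were lower, and 20 to 25 lower in CD69-activated cells. Same-numbered arrays did not deviate together (correlations of -0.24 to 0.14, and 1 of 9 arrays correlated best with its own number), and with the replicate number as a block 13 members were called in CD69-/- cells, 23 in CD69-activated cells and 24 between those groups. The shorter ISRE, which lacks the last letter, occurred in 55.6% of members' and 9.76% of all windows by gene. The cause of these shifts was not tested.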

Other observations

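Tlr7, an endosomal sensor of single-stranded RNA upstream of interferon production, lies on the X chromosome. Its log2 difference from wild type was -0.42 (limma adjusted p = 0.000844) in CD69-/- arrays, which had a male pattern, and -0.24 (adjusted p = 0.0183) in CD69-activated arrays, which did not. Tlr9, a sensor of DNA in the same compartment that is not on that chromosome, was at -0.49 (adjusted p = 4.32e-05) and had no call in CD69-activated cells. Genotype, sex and the lower B cell markers cannot be told apart in CD69-/- arrays.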
